A study of Mus musculus with 59 samples.

Results

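The 10 genes described here encode transcription factors that specify, commit or mature the B cell lineage. They are Pax5, Ebf1, Tcf3, Ikzf1, Ikzf3, Foxo1, Spib, Irf4, Irf8 and Bach2, which were chosen by name, and each of the 10 was found among the 24728 genes with a value in all 5 mRNA-seq libraries. All 10 were also among the 11681 genes whose mean TPM was 1 or more, for which the genotypes were compared. TPM, the usual length-normalised measure of transcript abundance, divides the reads of a gene by the length of its exons and scales each library to the same sum, so that levels of different genes can be set side by side.

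The libraries came from immature B cells that were sorted ex vivo from bone marrow and expressed IgM of the b allotype. The series holds 59 samples, of which these 5 are the mRNA-seq libraries of mature poly(A) RNA from this cell type. In the 2 control libraries, the genotype was Igh Δ890/+, where the Δ890 allele lacks 890 kb of the distal VH gene region with its PAIR elements and carries a blasticidin resistance gene without a promoter at the deletion point. The other 3 libraries were from cells with the Igh P4V allele, which is the Δ890 allele with PAIR4, the neighbouring VH8-7 gene and the V8.7E element inserted at the deletion point in embryonic stem cells. The insert also holds the cDNA of the spliced PAIR4 transcript, linked to PAIR4, with polyadenylation sites added at its end. Both groups therefore carry the 890-kb deletion on the mutant allele. The labels give the genotype of these 3 libraries as Igh(P4V/P4V), whereas the study describes the mice of both groups in this RNA-seq as heterozygous, apart from 1 mention of the homozygous genotype, with a wild-type 129/Sv allele that yields IgM of the a allotype and a C57BL/6 mutant allele that yields IgM of the b allotype. The libraries are called Igh P4V. The sort gate included B220+, IgM+ and IgD-. The comparison asks whether the mRNA levels of the factors differ between cells that used an Igh allele with or without the inserted elements.

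E2A, the product of Tcf3, and Ebf1 switch on the early B cell genes, and Pax5 then commits progenitors to the B cell lineage by activating B cell genes and repressing genes of other lineages. Ikaros (Ikzf1) and Aiolos (Ikzf3) are zinc finger proteins that act in pre-B cell differentiation, Foxo1 activates the Rag genes, and Irf4 and Irf8 promote the passage from the pre-B to the immature B cell stage. Spi-B is an Ets factor related to PU.1, and Bach2 is a repressor that holds back plasma cell differentiation. The PAIR elements at the Igh locus are known as sites bound by Pax5 and E2A in pro-B cells. The study describes Pax5 binding at PAIR4 and PAIR6 as already lost in pre-B cells, which precede the immature B cells used here.

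The depth was similar in the 5 libraries, with 25789967 to 28123503 reads on genes. The sorted cells carried the mRNAs of B cells, as Cd79a was at 9495 to 10845 TPM and Ighm at 15339 to 19530 TPM, whereas the 9 T cell markers summed to 8.18 to 14.3 TPM and the 5 NK cell markers to 6.36 to 11.2 TPM. Neither of these lists had a marker at 0 in all libraries. Of the erythroid markers, 5 were found in the files, and their sum was 442 to 471 TPM in the Igh Δ890/+ and 432 to 483 TPM in the Igh P4V libraries, most of it from Alas2, the first enzyme of haem synthesis in red cells, while the globin gene Hbb-b1 was listed at 0 in all libraries. Other signs differed between libraries. The 8 myeloid markers found in the files, none of them at 0, summed to 2407 to 3035 TPM in the Igh Δ890/+ libraries and to 1885 to 5891 TPM in the Igh P4V libraries, with the highest sum in Igh P4V library 3. Igll1, a component of the surrogate light chain of pre-B cells, was at 73.8 TPM in Igh P4V library 2 and at 17.97 to 19.8 TPM in the others. Of the 9 pro-B and pre-B markers, Vpreb1 and Dntt were also highest in this library, whereas Vpreb3, Rag1, Rag2, Il7r, Il2ra and Kit were within the range of the others, and the sum of the list was 4156 to 4971 TPM in the Igh Δ890/+ and 4465 to 4916 TPM in the Igh P4V libraries. Xist, which is expressed in female cells, was at 34.2 and 25.6 TPM in the controls and at 18.6, 18.3 and 2.999 TPM in the Igh P4V libraries, lower in all 3. The Y-linked Eif2s3y was at 11.2 and 19.6 TPM in the controls and at 17.6, 25.8 and 38.5 TPM in the Igh P4V libraries. RNA from both sexes was therefore present in each library, in proportions that differed between libraries. The number of mice behind a library is not given in the sources used here, and p-values measure only the spread between these libraries. As a check of the alleles, the 6 distal VH genes upstream of the insertion were examined. Of these, 5 were higher in all 3 Igh P4V libraries than in both controls, where 6.94% of all genes tested were. Only 1 of the 6, Ighv1-82, had an adjusted p under 0.05 (limma). The sum of the 6 was 314 to 339 TPM in the Igh Δ890/+ and 1001 to 1613 TPM in the Igh P4V libraries.

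The promoter sequences of Spib and Irf4, which stood at the upper and the lower end of the order of levels, and that of Foxo1, which holds the rarest of the motifs found, are shown to give the regulatory context of these genes. The windows are from RefSeq on GRCm38.p6 and run from 250 bases before to 50 bases after the annotated start, in the direction of the gene. They lie at chr7:44532022-44532321 on the minus strand for Spib, chr13:30748983-30749282 on the plus strand for Irf4 and chr3:52268087-52268386 on the plus strand for Foxo1. Capitals mark matches, on either strand, to 6 short motifs that are described after the sequences.
Spib: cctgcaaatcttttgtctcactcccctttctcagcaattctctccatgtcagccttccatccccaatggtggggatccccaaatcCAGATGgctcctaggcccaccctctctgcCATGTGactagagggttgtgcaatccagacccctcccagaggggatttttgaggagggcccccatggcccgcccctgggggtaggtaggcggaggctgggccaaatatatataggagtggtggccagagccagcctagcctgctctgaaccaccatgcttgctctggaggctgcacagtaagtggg
Irf4: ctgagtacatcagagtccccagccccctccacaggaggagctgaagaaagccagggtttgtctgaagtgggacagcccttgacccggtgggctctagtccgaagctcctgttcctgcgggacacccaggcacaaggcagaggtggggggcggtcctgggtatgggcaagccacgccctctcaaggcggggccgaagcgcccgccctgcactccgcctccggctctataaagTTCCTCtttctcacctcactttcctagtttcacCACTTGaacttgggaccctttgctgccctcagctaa
Foxo1: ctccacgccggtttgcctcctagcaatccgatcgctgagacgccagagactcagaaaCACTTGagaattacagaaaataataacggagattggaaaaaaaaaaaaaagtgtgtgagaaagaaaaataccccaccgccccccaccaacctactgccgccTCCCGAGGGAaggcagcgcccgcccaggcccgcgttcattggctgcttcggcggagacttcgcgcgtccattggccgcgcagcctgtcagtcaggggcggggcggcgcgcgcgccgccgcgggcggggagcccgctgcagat

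The motifs were CANNTG (E-box, bound by E proteins such as E2A), TCCCNNGGGA (Ebf1), TGGGAA (Ikaros), GTAAACA (Foxo), GAGGAA (PU.1 and Spi-B) and GAAANNGAAA (Irf), which were searched on both strands and did not overlap in these 3 windows. Of the 10 genes, 9 had at least 1 window, with 12 windows in all. The Spib window held 2 E-boxes and none of the other motifs. The Irf4 window held 1 E-box and 1 GAGGAA match on the reverse strand, and the Foxo1 window held 1 E-box and the Ebf1 motif TCCCGAGGGA. Among all 32851 RefSeq windows of this length, an E-box was present in 72.3%, the GAGGAA motif in 28.3%, the TGGGAA motif in 25.6%, the Foxo motif in 3.65%, the Irf motif in 3.44% and the Ebf1 motif in 0.904%. The Irf motif was present in 1 of the 12 windows, which is the upstream window of Ebf1 (chr11:44617850-44618149), and the Foxo motif in none. These matches describe the letters of the windows, as binding was not measured in these libraries.

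Spib was by far the highest of the 10 factors. Its level was 5043 and 5368 TPM in the Igh Δ890/+ libraries and 5118, 4680 and 4568 TPM in the Igh P4V libraries, with a mean of 4956 TPM. It thereby ranked number 13 by mean TPM among the 11681 genes, between ranks 11 and 16 in single libraries, among immunoglobulin, ribosomal protein and B cell receptor genes. Spib made up 51.4 to 54.0% of the summed TPM of the 10 factors, and this sum was 0.888 to 0.995% of all TPM. It was 39.4 to 48.2 times the level of Irf4, the lowest factor, within a library. The libraries of the genotypes overlapped for Spib, since Igh P4V library 1 lay between the 2 controls.

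**Figure D1:**
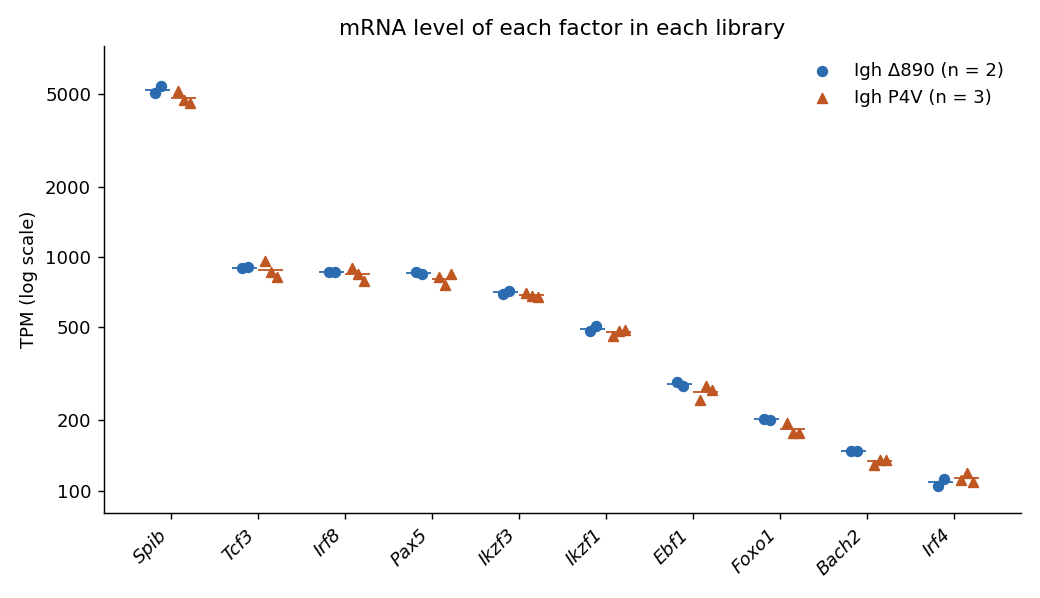
The vertical axis gives TPM on a log scale and the horizontal axis the 10 factors in the order of their mean. Circles are the 2 Igh Δ890/+ libraries, triangles the 3 Igh P4V libraries and short lines the mean of each genotype, with Spib at 4568 to 5368 TPM above all others and Irf4 at 105 to 119 TPM below.

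Tcf3, Irf8 and Pax5 followed at nearly equal levels. Tcf3 was at 893 and 907 TPM in the controls and at 957, 863 and 822 TPM in the Igh P4V libraries. Irf8 was at 866 and 865 TPM in the controls and at 895, 842 and 789 TPM in the Igh P4V libraries. For both genes, 1 Igh P4V library was above the 2 controls and 2 were below. Pax5 was at 859 and 846 TPM in the Igh Δ890/+ libraries and at 821, 758 and 845 TPM in the Igh P4V libraries, so that all 3 of the latter were below the controls. The order of Irf8 and Pax5 is not fixed by the data, as Irf8 was higher in 4 of 5 libraries. Tcf3 was higher than Irf8 in 5 of 5 libraries, but only by 1.02-fold to 1.07-fold within a library, and their ranges overlapped.

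The 2 Ikaros family members had the lowest coefficients of variation over the 5 libraries. Ikzf3 was at 696 and 713 TPM in the controls and at 702, 684 and 677 TPM in the Igh P4V libraries, a coefficient of variation of 2.06%, which was the lowest of the 10. Ikzf1 was at 480 and 505 TPM in the controls and at 461, 484 and 487 TPM in the Igh P4V libraries, a coefficient of variation of 3.27%. Within genotypes it was 1.78% for Ikzf3 and 3.20% for Ikzf1, with Bach2 between them at 2.28%. The genotypes overlapped for both. Aiolos mRNA exceeded Ikaros mRNA in every library, with a ratio of 1.44 ± 0.0521 (SD, n = 5).

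The remaining factors were Ebf1, Foxo1, Bach2 and Irf4. Ebf1 was at 292 and 281 TPM in the Igh Δ890/+ libraries and at 244, 279 and 270 TPM in the Igh P4V libraries. Foxo1 was at 203.2 and 201.3 TPM in the controls and at 195, 177 and 177 TPM in the Igh P4V libraries. Bach2 was at 148 and 147 TPM in the controls and at 129, 136 and 136 TPM in the Igh P4V libraries. For these 3 genes, all Igh P4V libraries lay below both controls. Whether reads were counted by strand is not stated, so that reads of Bach2 and of its antisense gene Bach2os, which is listed at 0.649 to 1.77 TPM, cannot be told apart. Irf4 was at 105 and 112 TPM in the controls and at 111, 119 and 109 TPM in the Igh P4V libraries, with overlap.

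From Pax5 down to Irf4, each factor was higher than the next in 5 of 5 libraries with no overlap of the ranges, at mean ratios of 1.19 for Pax5 over Ikzf3, 1.44 for Ikzf3 over Ikzf1, 1.77 for Ikzf1 over Ebf1, 1.44 for Ebf1 over Foxo1, 1.37 for Foxo1 over Bach2 and 1.26 for Bach2 over Irf4. The order by mean was the same in the Igh Δ890/+ and the Igh P4V libraries when each was taken alone. All 10 factors were among the upper part of the genes tested, with ranks of 123 for Tcf3, 127 for Irf8, 132 for Pax5, 166 for Ikzf3, 278 for Ikzf1, 620 for Ebf1, 947 for Foxo1, 1369 for Bach2 and 1735 for Irf4. When 30 other transcription factors of B cells were placed in the same order, only Klf2 (mean 1249 TPM), a zinc finger regulator of lymphocyte trafficking, and Pou2af1 (1135 TPM), the octamer coactivator, stood between Spib and Tcf3. Irf4 took place 25 of the 40, with 15 of the 30 other factors above it.

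**Figure D2:**
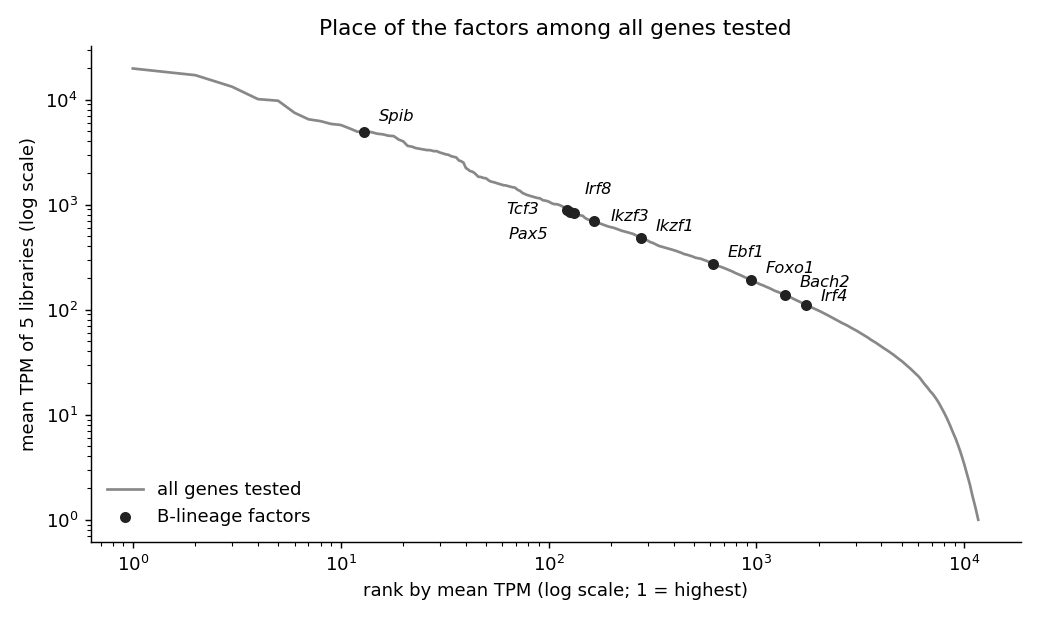
Mean TPM of the 5 libraries (vertical, log scale) is drawn against rank (horizontal, log scale) for the 11681 genes tested, with the 10 factors as points. Spib at rank 13 stands apart from a group of 4 between ranks 123 and 166, and Irf4 at rank 1735 is the lowest.

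The depth behind these levels was large. Whole read numbers could be recovered from the TPM values, and they ranged from 5554 to 6986 per library for Irf4 up to 158687 to 176787 for Spib. If reads were independent, counting error alone would give a coefficient of variation of 0.246% for Spib to 1.27% for Irf4, which is a lower limit because reads at equal positions were counted, and the coefficient of variation over the libraries was 2.06 to 6.76%. The median coefficient of variation was 5.28% for the factors, 5.81% for the 1946 genes averaging 100 TPM or more and 8.22% for all genes tested.

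Most of the factors were also the main expressed member of their family. Pax5 contributed 99.97% and Ebf1 99.96% of the summed TPM of their families, with no other Pax or Ebf gene reaching a mean of 1 TPM. Tcf3 made up 88.8% of the E protein mRNA, with Tcf12 at a mean of 65.2 TPM and Tcf4 at 46.2 TPM. Id3, an inhibitor that binds E proteins and keeps them from DNA, was at a mean of 324 TPM and made up 93.7% of the Id family. Spib exceeded Spi1, which encodes PU.1, by 7.97 ± 0.708 (SD, n = 5) fold, although Spi1 itself was at 623 TPM and thus above Ikzf1. Bach2 was 11.02 ± 0.684 (SD, n = 5) times as high as Bach1.

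The Foxo and Irf families were more evenly filled. Foxo1 held 61.4% of the Foxo mRNA, with Foxo3 at 68.7 TPM and Foxo4 at 50.9 TPM. Irf8 was the highest of the 9 Irf genes with 41.4% of their mRNA, followed by Irf5 at 432 TPM (21.0%) and Irf2 at 315 TPM (15.3%), whereas Irf4 held 5.41%. The ratio of Irf8 to Irf4, which are close relatives and act together in pre-B cells, was 7.67 ± 0.512 (SD, n = 5) and overlapped between the genotypes. The ratios of Spib to Spi1, Bach2 to Bach1 and Foxo1 to Foxo3 did not overlap and were lower in the Igh P4V libraries, with means of 7.58 against 8.56, 10.6 against 11.7 and 2.66 against 2.95. The other 4 of the 7 ratios computed overlapped, among them Tcf3 to Tcf4 with means of 19.6 against 18.7 and Tcf3 to Tcf12 with 14.1 against 13, which were higher in the Igh P4V libraries. The ratios were not tested, and how often ratios of other gene pairs overlap was not computed.

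**Figure D3:**
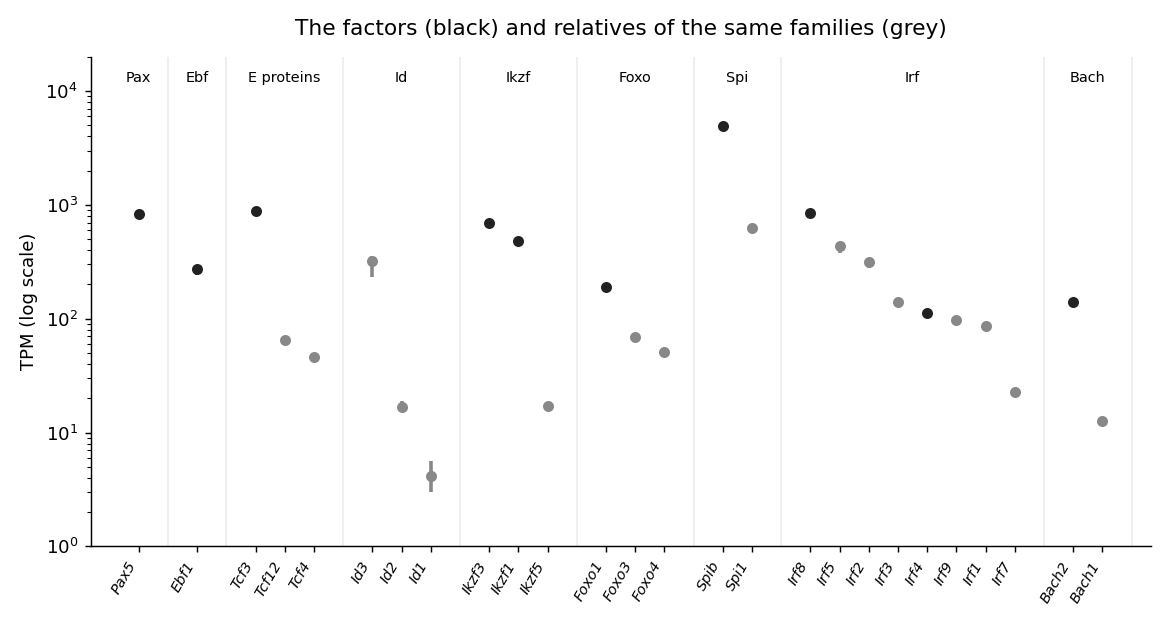
TPM on a log scale is shown for all family members averaging 1 TPM or more. Points are means and vertical lines the range of the 5 libraries, with the 10 factors in black and their relatives in grey. Pax5 and Ebf1 stand alone in their families, and Irf4 lies below Irf8, Irf5, Irf2 and Irf3.

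None of the 10 factors differed between the genotypes at an adjusted p of 0.05 (limma on log2(TPM + 1), Benjamini-Hochberg over 11681 genes). Their adjusted p-values were 0.893 to 0.957, and 1 gene of the 11681, or 0.00856%, passed this threshold. The differences, as Igh P4V minus Igh Δ890/+, were between −0.15 and 0.06 on this log2 scale. With their 95% confidence intervals they lay within −0.34 to 0.22, which corresponds to 0.790-fold to 1.17-fold. A p-value above the threshold does not show that the levels are equal, and the intervals state which sizes these 5 libraries leave possible.

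The Igh P4V cells were lower in 9 of the 10 factors, where 60.7% of all genes tested and 52.2% of those averaging 100 TPM or more had a difference below 0. The median difference was −0.06 for the factors, −0.03 for all genes tested and −0.0048 for the genes averaging 100 TPM or more. With libraries left out in turn, the median of the factors was −0.05 (without Igh P4V library 2) to −0.09 (without Igh P4V library 1), and 7 were lower without Igh P4V library 3. When the libraries were scaled by the median ratio of their genes, 8 of 10 factors were lower with a median of −0.0272, beside 48.7% and 0.0035 for all genes tested. All 3 Igh P4V libraries were below both controls for Pax5, Ebf1, Foxo1 and Bach2, which is 4 of 10, and none of the factors was above in all 3. This separation was seen in the lower direction for 16.2% of all genes tested and for 11.4% of those with at least 100 TPM. With fewer libraries the share over all genes was larger, so that the count of 4 stood beside 26% of all genes without Igh P4V library 2 and 22.7% without Igh P4V library 3. It was 8 without Igh P4V library 1 (27% of all genes) and 7 without Igh Δ890/+ library 1 (28.4%). Without Igh Δ890/+ library 2, 4 factors were separated in the lower direction (30.5% of all genes) and 1, Irf4, in the higher direction (17.7%).

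Bach2 was the only factor with an unadjusted p under 0.05, which 4.47% of all genes tested had (2.54% lower and 1.93% higher in Igh P4V cells). It fell short of the threshold over all genes, with 148 ± 0.541 TPM (SD, n = 2) in Igh Δ890/+ and 133 ± 3.87 TPM (SD, n = 3) in Igh P4V cells, a log2 difference of −0.15 (SE 0.060, 95% interval −0.29 to −0.0045, adjusted p = 0.893, limma). Its unadjusted p was 0.0449 (limma). Foxo1 had a difference of the same size, with 202 ± 1.38 TPM (SD, n = 2) and 183 ± 10.5 TPM (SD, n = 3), a log2 difference of −0.15 (SE 0.069, 95% interval −0.31 to 0.019). Both genes were lower in 3 of 3 Igh P4V libraries. With 1 library left out, the unadjusted p of Bach2 stayed under 0.05 only without Igh P4V library 3, and that of Foxo1 came under 0.05 without Igh P4V library 1. With limma voom on recovered reads, none of the 10 had an unadjusted p under 0.05.

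Of the factors that specify the lineage, Pax5 had a log2 difference of −0.08 (95% interval −0.25 to 0.095), Ebf1 of −0.12 (−0.30 to 0.065) and Tcf3 of −0.03 (−0.23 to 0.16). The mRNA of Pax5, whose protein binds PAIR4 in pro-B cells, thus had a 95% interval of 0.840-fold to 1.07-fold of the control level. Among the others, Spib differed by −0.12 (−0.34 to 0.098), Ikzf1 by −0.05 (−0.20 to 0.11), Ikzf3 by −0.04 (−0.18 to 0.11), Irf8 by −0.04 (−0.22 to 0.14) and Irf4 by 0.06 (−0.11 to 0.22). Single libraries moved these values by over 1.5 times. With libraries left out in turn, Pax5 was at −0.03 (without Igh P4V library 2) to −0.11 (without Igh P4V library 3), Ebf1 at −0.06 (without Igh P4V library 1) to −0.16 (without Igh P4V library 2) and Spib at −0.08 (without Igh Δ890/+ library 2) to −0.17 (without Igh P4V library 1). Without Igh Δ890/+ libraries 1 and 2 in turn, Ikzf1 was at −0.0824 and −0.0086, Ikzf3 at −0.0524 and −0.0193 and Irf4 at 0.0073 and 0.11. With median-ratio scaling, Ikzf3 was at −0.001. The direction was not stable for Tcf3 and Irf8. Tcf3 was at 0.0134 and Irf8 at 0.0033 without Igh P4V library 3, and Tcf3 was at 0.0001 when the libraries were scaled by the median ratio of their genes.

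**Figure D4:**
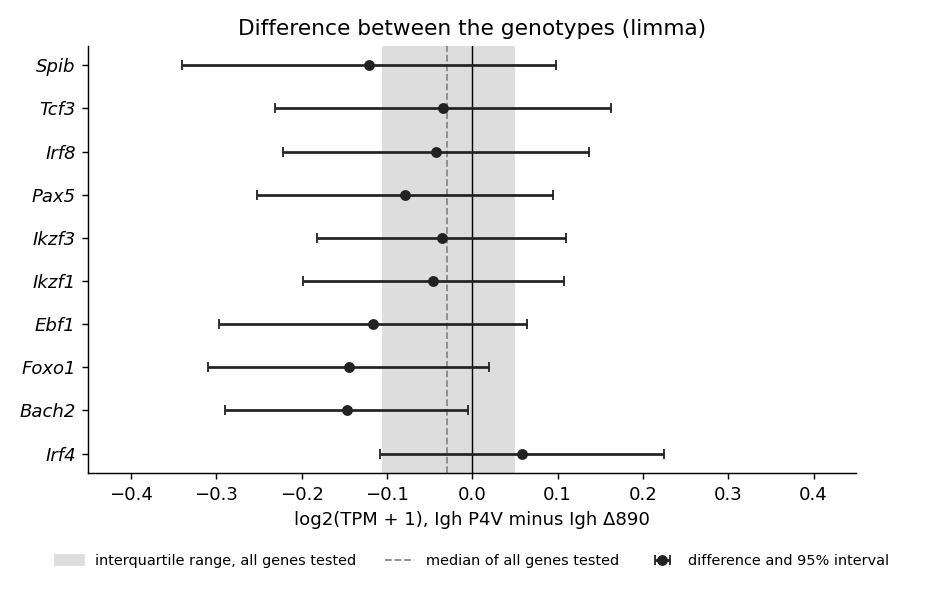
The horizontal axis gives the difference in log2(TPM + 1), Igh P4V minus Igh Δ890/+, for each factor, with points for the limma estimate and bars for the 95% interval. The grey band is the interquartile range of all 11681 genes and the dashed line their median of −0.03, and only the bar of Bach2 does not reach 0.

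Other gene lists with values that differed between the genotypes stand here beside these differences, although no gene of either list passed the adjusted threshold (limma). Of 10 genes of immediate early and stress responses, 8 were tested, 6 were higher in all 3 Igh P4V libraries (6.94% of all genes tested were) and 5 had an unadjusted p under 0.05 (1.93% of all genes tested in this direction). The sum of the list was 610 to 669 TPM in the Igh Δ890/+ and 739 to 1009 TPM in the Igh P4V libraries, no gene was at 0, and Fos, a subunit of the AP-1 factor, had means of 71.9 and 128 TPM. Of 10 proliferation genes, 6 were higher in all 3 Igh P4V libraries and 4 had an unadjusted p under 0.05, beside the same 6.94% and 1.93% of all genes, with sums of 510 to 527 and 554 to 752 TPM and no gene at 0. Their part in the small differences of the factors was not tested, and nor was that of the sex-linked transcripts or of the myeloid transcripts of Igh P4V library 3 or of Igll1, Vpreb1 and Dntt in Igh P4V library 2. Klf1, an erythroid transcription factor, was also higher in all 3 Igh P4V libraries (27.2, 28.5 and 34.3 TPM against 20.5 and 24.7 TPM). In sorted bulk cells, fewer cells of a type and less RNA per cell cannot be told apart.

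The 30 other transcription factors of B cells were compared in the same way. Of the 29 that were tested, none passed the adjusted threshold, none had an unadjusted p under 0.05 (limma, and also limma voom on recovered reads), 7 were lower and 1 was higher in all 3 Igh P4V libraries (16.2% and 6.94% of all genes tested were), and the median difference was −0.05. The highest of those lower were Pou2af1 (1153 and 1213 TPM in the controls against 1125, 1110 and 1076 TPM) and Ets1, an Ets factor of lymphocytes (514 and 498 TPM against 459, 449 and 476 TPM).

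Genes that are known targets of the factors showed no difference that passed the adjusted threshold in any list, and Prdm1, which Bach2 represses, was the only target gene with an unadjusted p under 0.05, with limma voom on recovered reads but not with limma on log2(TPM + 1). The 7 genes activated by Pax5 had a median difference of −0.06, and Cd72, an inhibitory coreceptor of B cells, was at 1359 and 1502 TPM in the controls and 1450, 1498 and 1453 TPM in the Igh P4V libraries. None of the 7 was separated between the genotypes. Of the 6 genes repressed by Pax5, 5 were tested, with a median of 0.04 and a range from −0.0008 to 1.23. The upper end was Jchain, the joining chain of secreted IgM, at 65.6 and 32.6 TPM in the controls and at 185, 181 and 39.1 TPM in the Igh P4V libraries, with overlap of the genotypes. Cd28, a T cell costimulatory receptor, stayed below 1 TPM in all libraries.

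The 9 target genes of Ebf1 and E2A had a median difference of −0.06 and ranged from −0.29 to 0.64. The upper end was Igll1, at 73.8 TPM in Igh P4V library 2 and at 17.97 to 19.8 TPM in the other libraries. Blk, a Src family kinase of B cells, was lower in all 3 Igh P4V libraries (472, 472 and 419 TPM against 511 and 480 TPM), as was Pou2af1, which is 2 of 9 where 16.2% of all genes tested were. All 9 target genes of Foxo1 had differences below 0, from −0.29 to −0.04 with a median of −0.14, where 60.7% of all genes tested were below 0. With median-ratio scaling, 9 of 9 were below 0 with a median of −0.12, beside 48.7% of all genes, and with libraries left out in turn 7 to 9 were. None had an unadjusted p under 0.05 (limma) and none was separated. Rag1, which Foxo1 activates and whose product cuts the recombination signals, was at 11.5 and 16.98 TPM in the controls and at 9.99, 12.8 and 11.2 TPM in the Igh P4V libraries.

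The 4 target genes of Spi-B and PU.1 had a median of −0.08 and the 5 of Irf4 and Irf8, which include Ikzf1 and Ikzf3 themselves, one of −0.04. Fcgr2b, the inhibitory Fc receptor of B cells, was lower in all 3 Igh P4V libraries (127, 124 and 112 TPM against 138 and 128 TPM), the only one of the 4 and beside the same 16.2% of all genes. The 3 genes repressed by Bach2 were the only target list with all differences above 0.2, at 0.28 for Hmox1, 0.34 for Cdkn1a and 0.42 for Prdm1. Prdm1, the regulator of plasma cell differentiation, was at 0.994 and 1.00 TPM in the controls and at 2.11, 1.87 and 1.14 TPM in the Igh P4V libraries. It was higher in all 3, but at levels near the limit of 1 TPM, and its adjusted p of 0.893 (limma) did not pass the threshold. The higher values were in Igh P4V libraries 1 and 2, in which Jchain was also highest and Sdc1, a surface marker of plasma cells, was at 35.5 and 34.1 TPM, compared with 27.4 TPM in Igh P4V library 3 and 27.8 and 28.9 TPM in the controls. Their part in the level of Prdm1 was not tested. Among 5 genes of plasma cells and activated B cells, including Prdm1, the median difference was 0.22, and the number with an unadjusted p under 0.05 was 0 with limma and 1 with limma voom on recovered reads.

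**Figure D5:**
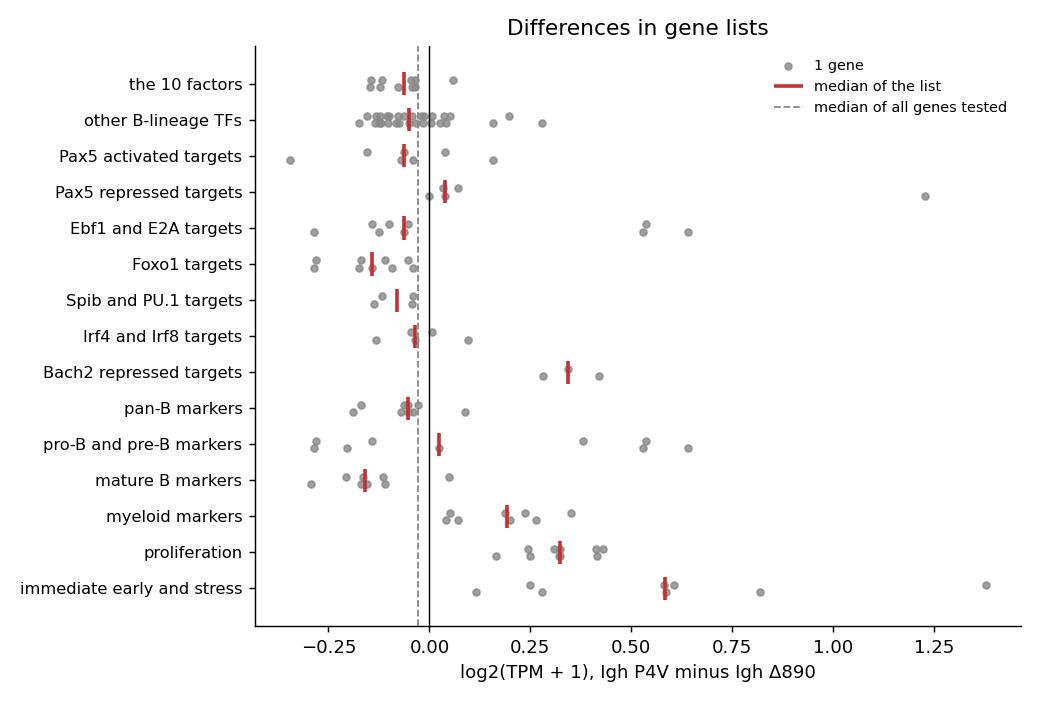
Each grey point is the difference in log2(TPM + 1) of 1 gene, Igh P4V minus Igh Δ890/+, red lines are the medians of the lists and the dashed line is the median of all genes tested. The 10 factors lie between −0.15 and 0.06, while the medians are 0.32 for proliferation genes and 0.58 for immediate early and stress genes.

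The genes with the most similar pattern over the 5 libraries were found for each factor by the Euclidean distance of log2(TPM + 1). The smallest distance was that of Irf4 to Ilkap (0.060), followed by those of Bach2 to Ccng2 (0.086), Foxo1 to Rasgrp1 (0.091), Pax5 to Myl12b (0.093) and Ikzf3 to Chst3 (0.099). The nearest gene to Spib was Cd37, a tetraspanin of B cells, with a mean of 4965 TPM and a distance of 0.16. For the others it was Ctbp1 for Ikzf1, Hvcn1 for Tcf3, Rnase6 for Ebf1 and H2-D1 for Irf8, at 0.11 to 0.14. The measure rests on 5 libraries and mainly finds genes of an equal level.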

How the data were processed

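mRNA of immature B cells was sequenced in 2 Igh Δ890/+ and 3 Igh P4V libraries as single reads of 50 bases. The authors aligned the reads with TopHat after removal of ribosomal reads, counted them on genes of their own transcript set with added immunoglobulin genes using featureCounts (version 1.5.0) and deposited TPM values. The genome build used for this alignment and the strand setting of the counting are not given in the sources used here. The methods describe a step that marks duplicates, but Spib had at least 28.5 reads per start position on both strands, so that reads at equal positions must have been counted.

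The groups were taken from the sample labels, and libraries were numbered in the order of their deposit. Entries without a value in a library (4 and 1 of 24732) were left out. Genes whose mean TPM was 1 or more (11681) were compared on log2(TPM + 1), where changes of weakly expressed genes appear smaller than they are, with limma 3.58.1 (lmFit and eBayes with trend) in R 4.3.3, with Benjamini-Hochberg adjustment of the p-values over all of them and a threshold of 0.05. The fit held only these 5 libraries and no covariates. Whole reads were recovered from the steps of the TPM values, which came out whole within 0.0001 reads for 100% of the genes tested, up to a common factor per gene. The depth was 25789967 to 28123503 reads per library. Counting errors cover sampling of reads only.

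The analysis was tested on simulated data for this comparison (11681 genes). Limma called 6% of 50 genes changed by 0.25, 74% of 50 changed by 0.5 and 100% of 50 changed by 1 (log2 scale). In this simulation 200 genes were changed at once, and the spread was drawn as independent normal noise. In the real data, Ighv1-81 differed by 2.05 (adjusted p = 0.22, limma) and Fos by 0.82 (adjusted p = 0.832, limma). Changes near or above 1 were therefore not always called, and the simulated shares do not carry over to single genes. The 10 factors and all gene lists were chosen with earlier results of these data known. The named genes of most lists are those with the highest mean TPM, an adjusted p under 0.05 or no overlap between the genotypes, with up to 4 per list. Exceptions are Hbb-b1 and the pro-B and pre-B markers, all of which are named. Rag1 and Cd28 were named after their values were seen, and Vpreb1 and Dntt were singled out by their values in Igh P4V library 2. Alternatives were other pseudocounts, filters, scalings and variance models, each library left out in turn, and limma voom on the recovered reads, which was added after the data were seen.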

Additional observations from a re-analysis of the deposited data

How the results depend on the processing

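No paired analysis was run, because the genotypes come from different mice and no pairs of libraries are described. None of the 10 factors passed an adjusted p of 0.05 (limma) under any of the 14 alternatives, where the smallest adjusted p was 0.676. Of their 140 differences, 137 kept their direction, within −0.19 to 0.11. The exceptions were Tcf3, at 0.0001 with median-ratio scaling and at −0.10 to 0.0134 with libraries left out in turn, and Irf8, at −0.0868 to 0.0033 with libraries left out. The number of all genes at an adjusted p under 0.05 was 1 (Ighv1-82), and it was 0 with a pseudocount of 0.1 or 5, without the trend, with quantile normalization or without immunoglobulin genes, where Ighv1-82 itself is not tested, 66 without the filter on low values, and 0 to 4 with libraries left out (4 without Igh P4V library 3, 2 without Igh P4V library 2). At an unadjusted p under 0.05 there were 522 genes, 1111 without the filter, and 212 to 837 with libraries left out (212 without Igh Δ890/+ library 1, 289 without Igh Δ890/+ library 2, 837 without Igh P4V library 1). Of the 522 genes 56.9% were lower in Igh P4V cells, compared with 33.5% with median-ratio and 41.6% with quantile scaling, 67.5% without the filter and 38.7 to 74.5% with libraries left out. The cause was not tested. With voom on recovered reads, 1 gene passed the adjusted and 481 the unadjusted threshold. The percentile of Spib was 99.89 among the genes tested and 99.95 among all genes listed, and that of Irf4 was 85.1 and 93.0, since the latter include genes below 1 TPM. With 2 and 3 libraries, differences of 0.25 are mostly not detectable.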

Other observations

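Of the 8 markers of mature B cells, Cd38, an ectoenzyme of the B cell surface, was lower in all 3 Igh P4V libraries, at 63.1, 65.6 and 63.7 TPM compared with 73.3 and 75.1 TPM in the controls (log2 difference −0.21, unadjusted p = 0.0125, limma). It was the only one of the 8 that was, where 16.2% of all genes tested were. The median difference of the list was −0.16. Its sum was 2408 and 1556 TPM in the controls and 2019, 1723 and 1457 TPM in the Igh P4V libraries, so that the controls differed widely. Ighd was at 381 and 229 TPM in the controls and at 273, 237 and 216 TPM in the Igh P4V libraries. H2-Aa, a chain of MHC class II, was at 1457 and 865 TPM in the controls and at 1223, 998 and 821 TPM in the Igh P4V libraries, so that the 2 controls differed more from each other than the genotypes.

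Id3 was lower in Igh P4V library 3 than elsewhere, at 231 TPM compared with 328 to 356 TPM in the other 4 libraries.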
